A study of Mus musculus with 8 samples.

Results

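A stretch of mouse chromosome 9 around Cd276, from 53000000 to 64000000 in the mm9 genome build, was described probe by probe in brain RNA of BTBR/R and B6 mice. The probes were chosen by their annotated start in this stretch, and the stretch itself was chosen from measured values of the strain comparison, because Cd276 was among the probes that differed between the strains. It held 342 of the 56605 probes measured, under 219 names of genes or transcripts, after 1 further probe was left out by the same rule. The rest of chromosome 9 held 2707 probes and the other chromosomes 52975. The strain differences below are therefore descriptions of these arrays, and no test of the stretch against other probes was made.

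B6 was C57BL/6J and BTBR/R was BTBRTF/ArtRbrc, a subline of the inbred BTBR strain, which is used as a model of low sociability. Whole cerebral cortex and striatum came from 4 males of each strain, for which the labels give no treatment, with 1 mouse per array and no pooling, and the strains came from different suppliers. By the labels the mice were 4 months old, with 6 months for replicate 1 of BTBR/R. The 8 arrays shared 1 slide on which each strain had a column of its own, and a difference between the columns cannot be told apart from one between the strains. In bulk tissue, fewer cells of a type and less RNA per cell cannot be told apart either.

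Genes that lie near each other on a chromosome are inherited together, so that inbred strains differ in whole stretches of DNA as well as at single genes. This part of chromosome 9 is rich in genes of unrelated function. Among them are Cd276, which encodes an immune checkpoint protein of the B7 family on the cell surface, the cluster of nicotinic acetylcholine receptor subunits Chrna5, Chrna3 and Chrnb4, the synaptic adhesion gene Nptn, and the DNA damage kinase gene Atm.

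The probes are 60 bases long, and the 30 bases from position 16 to position 45 are shown for those on which the description turns. They are printed 5′ to 3′ as the array annotation gives them, and capitals mark the polyadenylation signal AATAAA where it was found on the printed strand. The Cd276 and Rec114 probes are shown as the centre of the stretch and the called probe nearest to it, the Parp6 and Lrrc49 probes because probes of the same gene differed, and the lincRNA probe because it had the largest rise among probes detected on all 8 arrays.
Cd276: ccatcttaaagactaaaaatAATAAAcatg
Rec114: taaggaactgaaggtatttgAATAAAgagt
Parp6, clone AK021076: tcttcatccccattcatctgatagtattct
Parp6, clone AK007206: atgtcatgttttcttctaaaaatcttcctc
Parp6, clone AK164722: aactgggtaaccttatactgctaataagga
Parp6, first RefSeq probe: aaggaaatcatgcgtgtgatcggaactcag
Parp6, last RefSeq probe: cccaattgacttcaccctgtttgtaaataa
Lrrc49, Ensembl transcript: aagatagggctttgaaggatcaatgttttc
Lrrc49, RefSeq transcript: tagacatgatgagacaccaccactaccgca
lincRNA, forward strand: ttaatatgttcccgatggcttctgggacta
The signal AATAAA lay in this window of the Cd276 and Rec114 probes, and in 4.20% of the 56605 probes and 4.68% of the 342 probes of the stretch. These probes were searched on the printed strand only. Exon, intron or UTR was not assigned to the probes, because no mm9 gene annotation was used here. No BTBR/R sequence was used either, so whether the strains differ in sequence under a probe was not tested. From these arrays, less RNA and weaker binding of a probe cannot be told apart. For Cd276, the study also reported lower expression in BTBR/R by quantitative RT-PCR and, in the hippocampus, by in situ hybridization.

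Values are scaled signals, that is log2 processed signals from which the 75th percentile of the same array was taken away, so that a value of 0 is a probe at this percentile. Changes are BTBR/R minus B6. Detection follows the scanner software's mark for a spot well above background. The B6 arrays detected 64.5% to 66.8% of all probes and the BTBR/R arrays 53.5% to 57.2%. On the BTBR/R arrays the lowest detected signals were 36.1 to 47.1, against 14.5 to 17.8 on the B6 arrays. In the stretch, all 8 arrays detected 187 probes, every B6 array but not every BTBR/R array detected 42, and for 113 neither strain had the probe on each of its arrays. Of the cortex markers 5 of 5 and of the striatum markers 6 of 6 were detected on all 8 arrays, and none of either list passed the adjusted p of 0.05. Of 4 red blood cell markers 3 were lower in BTBR/R, with array means of 2.23 to 4.07 in B6 and 1.70 to 1.999 in BTBR/R, and their part in the changes of the stretch was not tested.

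The stretch had 229 probes that at least 1 strain showed on each of its arrays, and of these 4 were higher and 8 lower in BTBR/R by the call rule, a limma adjusted p below 0.05 and at least 2-fold. Those are 1.75% and 3.49% of them, beside 1.03% and 3.38% of all 35539 such probes. Without the condition on detection, 57 of all 342 met the rule as higher and 9 as lower, beside 20.2% and 2.27% of all probes. Of these 66 calls, 54 fell on probes that were not detected on every array of either strain, and they are not described as changes. By the adjusted p alone, 35 of the 187 probes detected on all 8 arrays were higher and 28 lower, beside 13.0% and 13.9% of all 28547 such probes. With scaling by spike-in probes, which moved the median change of the probes detected on all 8 arrays from 0.00 to 0.17, the same counts were 63 and 11. Because measured values of this contrast chose the stretch, nothing is read from these counts about it.

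**Figure D1:**
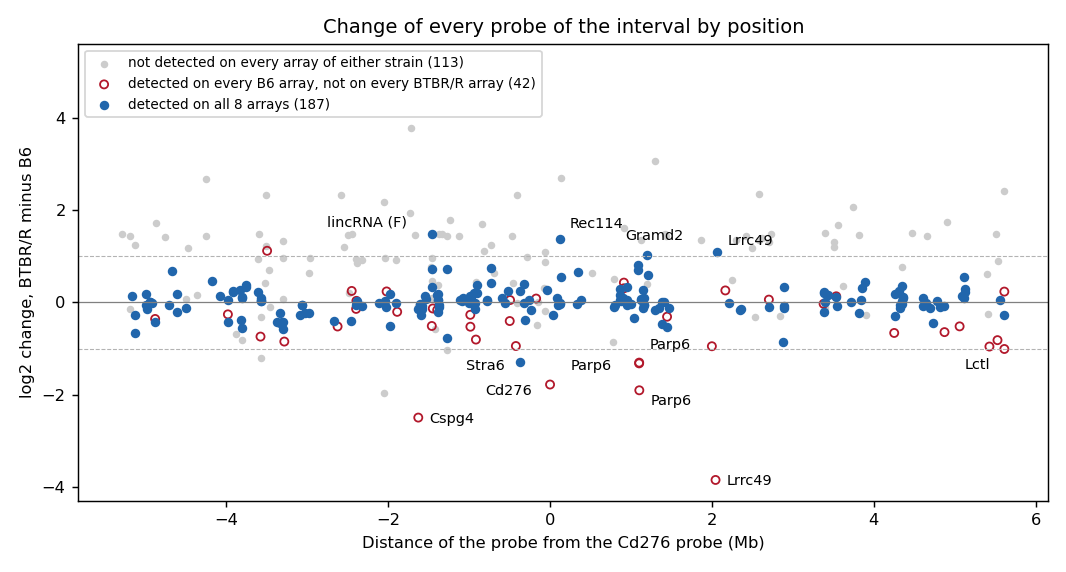
Each point is 1 of the 342 probes, with its log2 change (BTBR/R minus B6) on the y axis and its distance in Mb from the Cd276 probe on the x axis; blue points were detected on all 8 arrays, open red points on each B6 array but not on each BTBR/R array, grey points in neither way, and dashed lines mark 2-fold. The named probes are the 12 called at 2-fold, and most blue points lie close to 0 along the whole stretch.

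The 12 called probes stood for 9 names, and they were scattered among probes of little change. Lower in BTBR/R were the single Cd276 probe, 3 probes of Parp6 and 1 probe each of Lrrc49, Cspg4, Stra6 and Lctl. Higher were 1 probe each of a lincRNA, Rec114, Lrrc49 and Gramd2. With normexp background correction, which shrinks dim probes, 3 of the 11 called probes besides Cd276 kept the call, and 5 with a floor at the highest detection limit. Just inside the 2-fold threshold lay Lctl at -1.01 and Gramd2 at 1.04, and just outside it Smad6 at -0.96, the non-coding transcript 9230112J17Rik at -0.95, Ccdc33 at -0.95 and Tle3 at -0.86. No BTBR/R array detected the Lctl, Smad6 and Ccdc33 probes, so that their places at the threshold rest on BTBR/R signals not well above background.

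**Figure D2:**
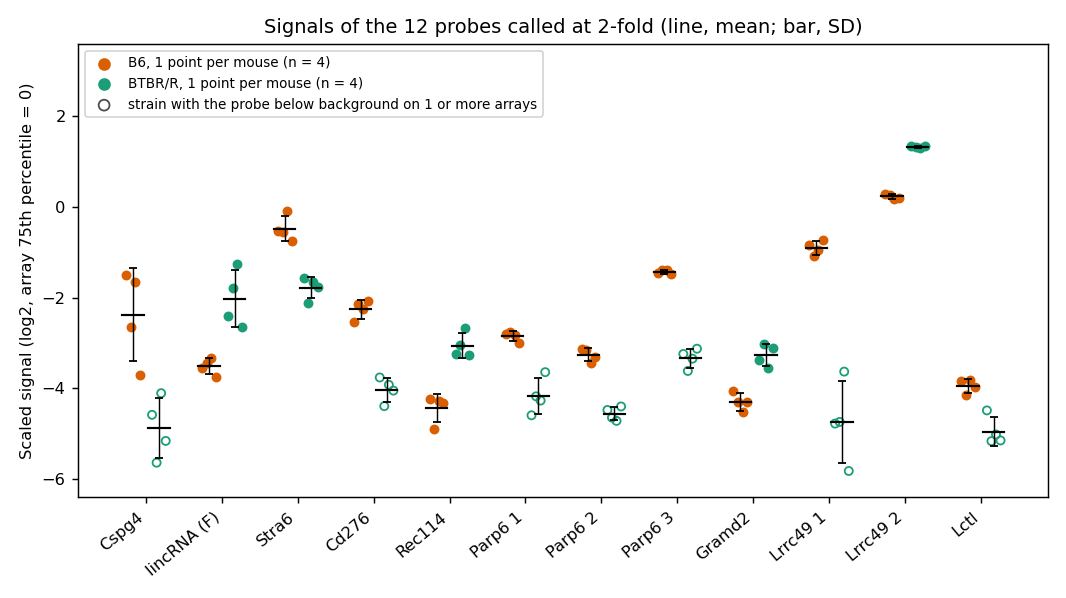
Scaled signals (y axis, log2, 0 at the 75th percentile of the array) of the 12 called probes in the order of their position, 1 point per mouse, with the mean (line) and SD (bar) of the 4 mice of each strain; open points mark a strain in which the probe was below background on 1 or more arrays. The strains do not overlap at any of the 12 probes, which the call rule favours.

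Cd276 was measured by 1 probe, on the reverse strand at chr9:58372143-58372202. Its scaled signals were -2.55, -2.14, -2.25 and -2.08 in the 4 B6 mice, and -3.76, -4.40, -3.92 and -4.05 in the 4 BTBR/R mice. All 4 B6 values were thus above all 4 BTBR/R values, and the probe was detected on every B6 array and on no BTBR/R array. The B6 mean of -2.25 ± 0.21 (SD, n = 4) stood at least 2.64-fold above the BTBR/R arrays, taking for each of these the higher of its own signal and its detection limit. The measured BTBR/R mean was -4.03 ± 0.27 (SD, n = 4), a log2 change of -1.78 ± 0.16 (SE). It was -0.89, below 2-fold, with normexp, and -1.29 with the common floor at the highest detection limit. The bounds given for this and other probes hold for the scaled signals with each array's own detection limit, which is the lowest signal detected on that array. Some undetected probes read above such a limit, so the bounds are not strict. A common floor or normexp can give smaller differences.

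The genes nearest to Cd276, taken as 3 with a detected probe on each side, changed in both directions. On the side of lower coordinates, the nearest gene with a detected probe was 6030419C18Rik, 34007 bases away. It read 1.61 ± 0.03 in B6 and 1.88 ± 0.11 in BTBR/R (SD, n = 4 each), a change of 0.27. Next came a lincRNA probe that no BTBR/R array detected, so that its change is not known, and Loxl1, a lysyl oxidase that cross-links elastin, at -0.16. On the other side, the predicted transcript Gm10657 lay 31417 bases away and changed by -0.28, from -0.86 ± 0.02 in B6 to -1.14 ± 0.04 in BTBR/R. The cDNA AK039616 differed by 0.10, and Nptn, which encodes the immunoglobulin-type adhesion protein neuroplastin, by -0.02 at its brightest probe. Of these 6 neighbours, 6030419C18Rik and Gm10657 passed the adjusted p of 0.05, in opposite directions. The next gene on the side of higher coordinates was Rec114, with a far larger change.

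Within 0.25 Mb of the Cd276 probe, 9 other probes were detected on all 8 arrays, with a median size of the log2 change of 0.16. It was 0.09 for the 36 probes at 0.25 to 1 Mb, 0.14 for the 44 at 1 to 2 Mb and 0.14 for the 98 farther away. The share that passed the adjusted p of 0.05 was 4 of 9, 10 of 36, 13 of 44 and 36 of 98 in the same order, beside 13.0% higher and 13.9% lower of all 28547 such probes. The nearest probes had the largest of the 4 medians, and over the other three the median rose with distance.

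Rec114, a gene for a protein that helps to start meiotic recombination, had the closest called probe to Cd276 on the side of higher coordinates. At chr9:58500683-58500742 on the reverse strand, its signals were -4.24, -4.90, -4.28 and -4.32 in B6 and -3.25, -3.05, -2.67 and -3.26 in BTBR/R. The strains did not overlap, and the change was 1.38 ± 0.19 (SE), on a probe close to the lower end of the measured range. It lost its call with normexp, at 0.70, and with the floor at the highest detection limit, at 0.49 with an adjusted p of 0.0699. The brightest Nptn probe ended 43 bases before it on the opposite strand, and there the signals averaged 5.87 ± 0.08 in B6 and 5.85 ± 0.02 in BTBR/R. A further Nptn probe at chr9:58502566-58502625, beyond the Rec114 probe and designed on an Ensembl transcript, rose by 0.54, from -1.40 ± 0.14 to -0.86 ± 0.11. Of the 4 Nptn probes, the others differed by -0.05 to -0.01. A second Rec114 probe, starting at 58508155, was detected on no B6 array and on 2 BTBR/R arrays, and it is not described as a change.

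Stra6, the cell surface receptor through which retinol is taken up from its binding protein, had the largest fall among the probes detected on all 8 arrays. Its probe at chr9:58000379-58000990 read -0.52, -0.55, -0.09 and -0.75 in B6 and -1.57, -2.11, -1.67 and -1.77 in BTBR/R. The highest BTBR/R mouse thus lay below the lowest B6 mouse, and the change was -1.30 ± 0.17 (SE), or -0.97, below 2-fold, with normexp. The retinoic acid binding protein gene Crabp1 moved the other way, with a change of 0.38 from -0.01 ± 0.09 to 0.37 ± 0.14, while the retinal nuclear receptor gene Nr2e3 was not detected on every array of either strain.

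At Parp6, which encodes a mono-ADP-ribosyltransferase, 5 probes fell into 2 sets. The 3 probes designed on cDNA clones lay between 59472677 and 59475215, and the 2 designed on RefSeq transcripts between 59497774 and 59498076, all on the forward strand. The brightest clone probe (AK164722) read -1.45, -1.40, -1.39 and -1.48 in B6 and -3.24, -3.62, -3.35 and -3.13 in BTBR/R, where it was detected on 3 arrays. Its change was -1.91 ± 0.10 (SE). No BTBR/R array detected the clone probes AK021076 and AK007206. Their B6 means of -2.85 ± 0.11 and -3.26 ± 0.15 were at least 1.79-fold and 1.36-fold above the BTBR/R arrays by each array's own limit. These clone probes lost their calls with normexp, at -0.38 and -0.52, and with the common floor, at -0.70 and -0.29. The RefSeq probes were far brighter and differed little, with 2.98 ± 0.06 in B6 and 3.03 ± 0.04 in BTBR/R for the first and 4.81 ± 0.08 and 4.88 ± 0.07 for the last. The files do not say which transcripts a clone probe reads, and its match to the BTBR/R sequence was not tested.

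Lrrc49, whose product is a leucine-rich repeat protein of the tubulin polyglutamylase complex, had probes called in opposite directions. The probe on an Ensembl transcript at chr9:60417044-60417103 read -0.83, -1.09, -0.94 and -0.73 in B6 and -4.78, -4.74, -3.63 and -5.83 in BTBR/R. It was detected on every B6 array and on no BTBR/R array, and B6 was at least 7.01-fold higher, with a measured log2 change of -3.85 ± 0.41 (SE), the largest fall of the stretch. The change was -2.65 with the common floor and -1.94 with normexp, and the match of the probe to the BTBR/R sequence was not tested. The probe on the RefSeq transcript at chr9:60435388-60435447 read 0.29, 0.27, 0.19 and 0.19 in B6 and 1.35, 1.33, 1.31 and 1.34 in BTBR/R. Its rise of 1.10 ± 0.04 (SE) was among the most even, with an SD of 0.02 in BTBR/R, and it was 0.99, below 2-fold, with normexp. Both probes lie on the reverse strand, and Larp6, an RNA-binding protein gene farther along the map, differed by -0.01.

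Cspg4, the NG2 proteoglycan of oligodendrocyte precursors and pericytes, also gave probes that differed. The probe on a cDNA clone at chr9:56743936-56743995 read -1.49, -2.65, -1.65 and -3.72 in B6 and -4.59, -5.64, -4.11 and -5.16 in BTBR/R. The B6 mice spread widely (SD 1.03), no BTBR/R array detected the probe, and B6 was at least 2.51-fold higher by each array's own limit. With the common floor the change was -1.21 with an adjusted p of 0.185, and the call was lost. The match of this probe to the BTBR/R sequence was not tested. The RefSeq probe at chr9:56746627-56746686 was detected on all 8 arrays and read 0.19 ± 0.05 in B6 and 0.05 ± 0.12 in BTBR/R, a change of -0.14 that did not pass the adjusted p of 0.05.

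**Figure D3:**
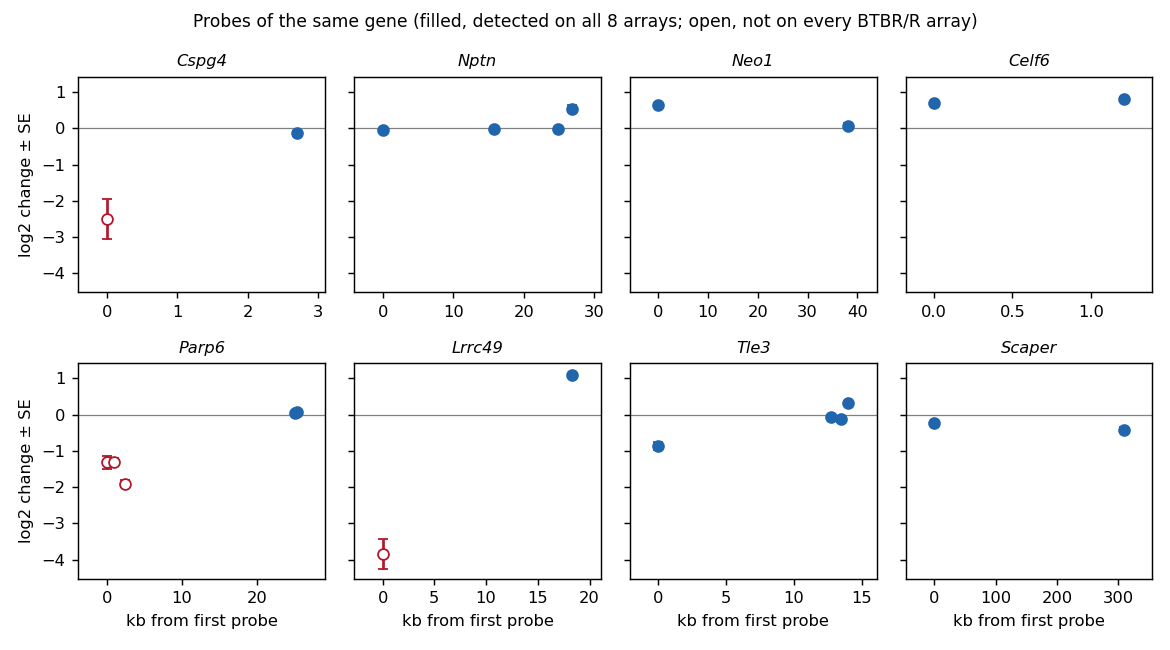
Log2 change (y axis, BTBR/R minus B6, with its SE) of each probe of 8 genes against its distance in kb from the gene's first probe shown; filled points were detected on all 8 arrays and open points were not detected on every BTBR/R array. Celf6 probes lie together, while Parp6, Lrrc49, Cspg4 and Tle3 probes of the same gene lie apart.

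Probes of one gene that were detected on all 8 arrays can be set beside each other without detection limits. This condition leaves out the probes lost in BTBR/R at Parp6, Lrrc49 and Cspg4, so that Parp6 is counted by its RefSeq probes alone and Lrrc49 and Cspg4 are not counted, and it favours small differences. Among 41 genes with at least 2 such probes, the highest and lowest change differed by a median of 0.17, by under 0.2 in 25 genes and by over 0.5 in 4. Those 4 were 1700017B05Rik, Tle3, Neo1 and Nptn. Tle3, a Groucho-type transcriptional corepressor, was the single gene of the 41 with probes passing the adjusted p of 0.05 in both directions. Its probe on an Ensembl transcript at chr9:61251955-61252014 changed by -0.86 ± 0.12 (SE), from -0.61 ± 0.15 in B6 to -1.47 ± 0.20 in BTBR/R, and its brightest probe at 61265959 changed by 0.32 ± 0.05 (SE), from 0.53 ± 0.03 to 0.85 ± 0.08. The 2 probes between them differed by -0.07 and -0.12. Neo1, the receptor neogenin for netrins and repulsive guidance molecules, changed by 0.65 at its RefSeq probe and by 0.05 at a cDNA probe.

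Celf6, an RNA-binding regulator of splicing, gave the same result at both of its probes. The brighter probe averaged 1.43 ± 0.09 in B6 and 2.24 ± 0.02 in BTBR/R, and the other -0.04 ± 0.05 and 0.65 ± 0.06. The changes were 0.81 ± 0.05 and 0.69 ± 0.05 (SE), both below 2-fold, and the strains did not overlap at either probe. Atm fell at both of its probes, by 0.66 and by 0.28, and Smad3, a signal transducer of TGF-beta receptors, rose at both, by 0.22 and by 0.28.

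The forward-strand lincRNA beside Ptpn9 was represented by 4 probes on overlapping models, of which 2 were detected on all 8 arrays. Of these, the probe at chr9:56915005-56915064 read -3.55, -3.45, -3.32 and -3.75 in B6 and -2.41, -1.80, -1.26 and -2.65 in BTBR/R, a rise of 1.49 ± 0.30 (SE) with no overlap of the strains, and 0.95, below 2-fold, with normexp. The probe at chr9:56911725-56911784 was brighter and rose by 0.73 ± 0.05 (SE), from -1.01 ± 0.04 to -0.28 ± 0.05. The forward-strand probe at 56911393 differed by 0.08 and was detected on 2 B6 arrays and no BTBR/R array, and the one at 56914289 was detected on no array. A probe for the reverse strand of the same region at 56910941 was lower in BTBR/R by 0.51 and was detected on 3 BTBR/R arrays. The Ptpn9 probe, for a cytoplasmic tyrosine phosphatase, lay next to them at 56910412 on the forward strand and rose by 0.34, from 1.31 ± 0.09 to 1.65 ± 0.02.

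The remaining called probes were dim. Gramd2, a GRAM domain gene, read -4.07, -4.31, -4.53 and -4.31 in B6 and -3.37, -3.03, -3.55 and -3.11 in BTBR/R at chr9:59565612-59565671. Its change was 1.04 ± 0.14 (SE), and it lost the 2-fold call when B6 replicate 3 (0.96) or, in BTBR/R, replicate 2 (0.96) or 4 (0.99) was left out, with normexp (0.51) and with the floor (0.28). Lctl, a klotho-family glycosidase gene at the far end of the stretch, read -3.84, -4.16, -3.83 and -3.96 in B6 and -4.49, -5.17, -5.02 and -5.15 in BTBR/R. No BTBR/R array detected it, the mean detection limit of these arrays lay above its B6 mean, and it lost its call without B6 replicate 1 (-0.98), B6 replicate 3 (-0.97) or BTBR/R replicate 2 (-0.94), 3 (-0.99) or 4 (-0.95), and with normexp (-0.29), quantile normalization (-0.94), spike-in scaling (-0.84) and the floor, at which its strains were equal.

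When the 187 probes detected on all 8 arrays were read in order of position, they formed 80 runs of one sign, of which 38 held 1 probe and 9 held 5 or more. The longest run had 14 probes of 9 names, all lower in BTBR/R, from 1700071A11Rik at 54996305 to Pstpip1 at 55970460. Changes in it ranged from -0.58 to -0.05 with a median of -0.34, and 10 of the 14 passed the adjusted p of 0.05, beside 13.9% of all such probes that passed as lower. The run was picked for its sign, and nothing is read from this count. The mean scaled signal of the 14 probes was 0.24, 0.22, 0.20 and 0.23 in the 4 B6 mice and -0.06, -0.16, -0.10 and -0.02 in the 4 BTBR/R mice. With spike-in scaling 11 of the 14 stayed below 0 and 3 passed the adjusted p, with a median of -0.16.

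The run held genes of ubiquitin transfer, electron transport and calcium binding. Fbxo22, the substrate receptor of a ubiquitin ligase, fell by 0.58 and by 0.42 at its probes, and the ubiquitin-conjugating enzyme gene Ube2q2 by 0.24 and by 0.43. The cDNA AK040094, mapped between the Ube2q2 probes, fell by 0.46. Rcn2, a calcium-binding protein of the endoplasmic reticulum, went from 3.62 ± 0.06 in B6 to 3.22 ± 0.05 in BTBR/R, a change of -0.40. Scaper fell by 0.24 and by 0.41. Etfa, a subunit of the electron transfer flavoprotein, fell by 0.23 at its dimmest probe and differed by -0.05 and -0.06 at the brighter ones.

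**Figure D4:**
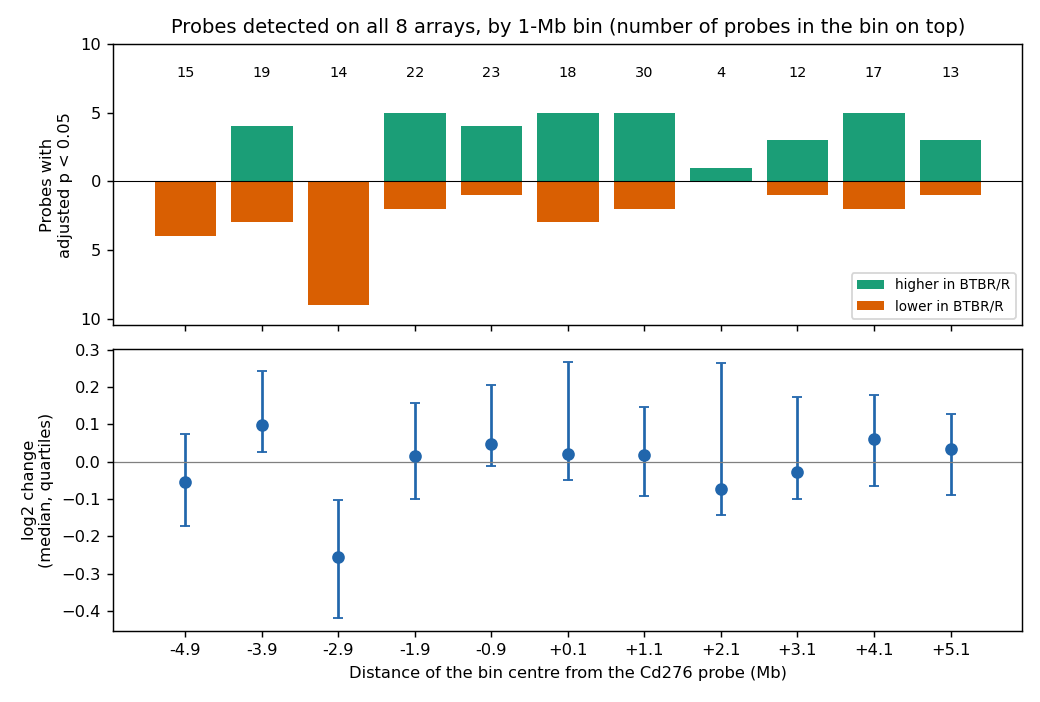
Top, probes detected on all 8 arrays with an adjusted p below 0.05 in each 1-Mb bin, higher in BTBR/R above the axis and lower below it, with the number of probes in the bin on top; bottom, median and quartiles of the log2 change. The x axis is the distance of the bin's centre from the Cd276 probe in Mb. The bin from 55 to 56 Mb has 9 lower probes of 14 and a median of -0.25.

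By 1-Mb bin, the median change of the probes detected on all 8 arrays lay between -0.07 and 0.10 in 10 of the 11 bins and was -0.25 in the bin from 55 to 56 Mb. In that bin, which holds most of the run picked for its sign, 9 of 14 probes were lower at an adjusted p below 0.05, beside 13.9% of all such probes that were lower and 13.0% that were higher. The bin from 58 to 59 Mb, which holds Cd276, had 5 higher and 3 lower of 18 probes and a median of 0.02. The 12 called probes fell in the bins that start at 56, 58, 59, 60 and 63 Mb, with 2, 3, 4, 2 and 1 of them, the 4 at 59 Mb being Parp6 and Gramd2. Over the whole stretch the median was 0.02 with quartiles of -0.11 and 0.17, beside 0.00 with quartiles of -0.12 and 0.12 over all 28547 such probes. The median size of the change was 0.14, beside 0.13 over the rest of chromosome 9 and 0.12 over all probes.

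**Figure D5:**
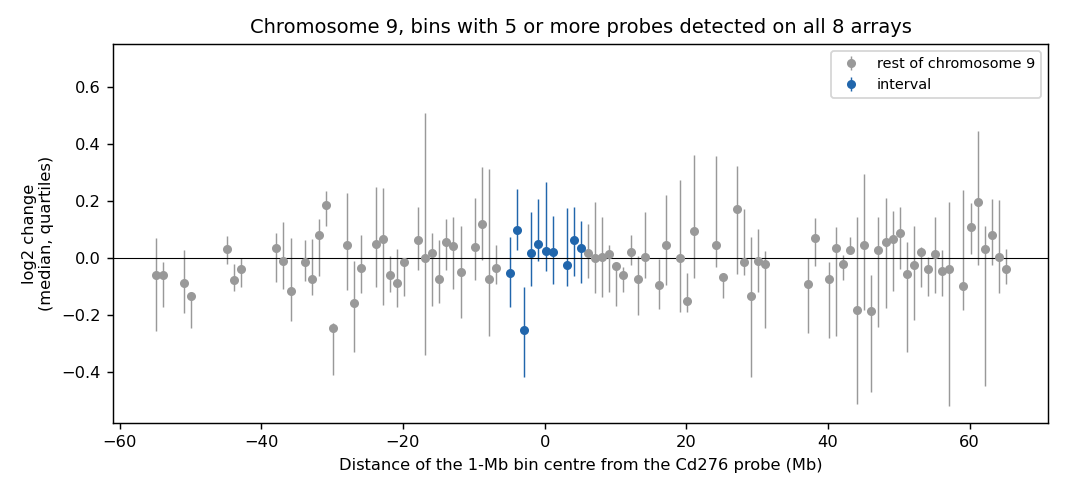
Median and quartiles of the log2 change (y axis, BTBR/R minus B6) of the probes detected on all 8 arrays in each 1-Mb bin of chromosome 9 with 5 or more such probes, against the distance of the bin's centre from the Cd276 probe in Mb (x axis). Blue bins are those of the stretch and grey bins the rest of the chromosome; the blue bin from 55 to 56 Mb has the lowest median drawn (-0.254, beside -0.246 for a grey bin near -30 Mb), and the other blue bins lie within the range of the grey ones.

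Of 15 genes of the axon, synapse and adhesion list 14 were detected, and by their brightest probes Neo1, Islr2 and Coro2b were higher at the adjusted p and none was lower, with a list median of 0.02. Over all 22723 genes on the array with a detected probe, 2739 were higher and 3893 lower in the same way with a median of -0.02, and the lists that follow are to be read beside these counts. Islr2, a leucine-rich repeat protein of growing axons, went from 3.03 ± 0.11 to 3.43 ± 0.16, and Coro2b, a coronin that binds actin, from 3.78 ± 0.06 to 4.22 ± 0.07. The tetraspanin gene Tspan3 (5.59 ± 0.04 and 5.61 ± 0.04), the semaphorin gene Sema7a (3.83 ± 0.06 and 3.81 ± 0.08) and the Nogo receptor partner gene Lingo1 (1.75 ± 0.06 and 1.74 ± 0.13) gave B6 and BTBR/R means that lay within 1 SD of each other. In the nicotinic receptor cluster Chrna5 and Chrna3 were not detected on every array of either strain. Chrnb4 was detected on 2 BTBR/R arrays and differed by 1.12 ± 0.81 (SE), within the spread of the BTBR/R mice (SD 1.76).

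Of 7 genes for immune surface proteins and signalling, Csk and Ptpn9 were higher and Cd276 and Pml lower at the adjusted p. Csk, the kinase that holds Src-family kinases in check, rose by 0.21, and Pml, which builds the nuclear bodies named after it, fell by 0.39. Of 10 genes of TGF-beta signalling and matrix, Smad3 was higher, and Smad6 and Itga11, an integrin subunit that binds collagen, were lower. Smad6, an inhibitory SMAD, read -3.21 ± 0.22 in B6 and -4.16 ± 0.12 in BTBR/R, where no array detected it. The retinoid list held Crabp1 and Stra6 as described. Among 4 cytochrome P450 genes Cyp11a1 alone was detected, and it differed by 0.24 without passing the adjusted p.

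Of 9 genes of a list of mitochondrial and energy metabolism, which also held the iron-responsive element-binding gene Ireb2, Idh3a, Acsbg1 and Ireb2 were higher and Acat1 lower. Idh3a, a subunit of the isocitrate dehydrogenase of the citric acid cycle, went from 3.16 ± 0.07 to 3.41 ± 0.03. Acat1 differed by -0.14, and it was the single probe of the 63 past the adjusted p whose sign turned with spike-in scaling, to 0.03. Pkm, the pyruvate kinase of muscle and brain, was among the brightest genes of the stretch at 6.73 ± 0.02 and 6.66 ± 0.02. Its brightest probe and those of Rplp1 may also read near-identical copies elsewhere in the genome, and their values are uncertain for that reason.

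Of 10 genes of DNA damage, chromatin and other nuclear proteins, Arid3b and Tle3 were higher and Atm lower by their brightest probes. Arid3b, an AT-rich DNA-binding protein, rose by 0.42 and by 0.74 at its probes. Of 8 genes of a list of ubiquitin and proteasome, which also held the kinase gene Ulk3 and the cilium gene Bbs4, Fem1b passed the adjusted p, at 0.18. The list did not hold Fbxo22 and Ube2q2, which were lower at both of their probes as given above. The proteasome subunit gene Psma4 differed by 0.02 to 0.10 over its 4 probes. Of 6 genes of a list of lysosomal and glycan enzymes, which also held Parp6, Man2c1, a cytosolic mannosidase, rose by 0.18 and Hexa, the alpha subunit of the lysosomal hexosaminidase, fell by 0.35. Of 6 genes of a list named for RNA binding and splicing, Celf6 was higher and Scaper lower, by their brightest probes. A list of small GTPases and motors held Rab39, Kif23 and Myo9a, of which none passed the adjusted p by its brightest detected probe, and the genes of the calcium-binding proteins Rcn2 and Cib2, which were lower, Cib2 by 0.44. The other Cib2 probe differed by 0.05. Over the 149 genes of the stretch with a detected probe, 27 were higher and 30 lower by their brightest probe with a median of 0.00.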

How the data were processed

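The authors scanned the 1-colour arrays with Agilent Feature Extraction 10.7.3.1, per the submitters' processing notes, and deposited spot intensities, among them a processed signal made by background subtraction and detrending, in which surrogate values stand for low signals. The authors also deposited log2 values, which lay a fixed distance per array from the log2 processed signal (within 0.01 for 99.97% or more of the probes).

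Here control spots and outlier flags were left out, spots of a probe were averaged, and log2 signals minus the 75th percentile of each array were compared with limma 3.58.1 in R 4.3.3 (lmFit, then eBayes), and p-values of all 56605 probes were adjusted together by Benjamini and Hochberg's method. A call needed an adjusted p below 0.05 and 2-fold. When BTBR/R against B6 was simulated over 56605 probes, 153 of 200 changed probes and 3 unchanged ones were called. All planted changes were larger than 2-fold, and unchanged probes had the same mean and SD in both strains. The simulation therefore says nothing of changes near the threshold. It also does not cover the unlike detection limits of the strains, so the 3 does not measure calls among undetected probes. Groups and replicates were those of the labels, and nothing beyond 1 mouse per array says how the mice were related. The number of arrays limits the precision. Python 3.11.15, numpy 2.4.6, pandas 2.3.3 and matplotlib 3.10.9 were used for the remaining steps.

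The members and gene lists were chosen with earlier results of these data known. Named genes were Cd276, its 3 nearest detected genes on each side, every gene with a called probe detected on every array of 1 strain, genes with probes passing in opposite directions, and up to 4 of the brightest genes of each list. Other genes in the text, such as those of the longest run, were chosen after their values were seen. A gene was given by its brightest detected probe. Where a strain was not detected, the fold is a bound from the higher of each array's signal and its detection limit. This limit is the lowest signal detected on the array, and the bound is not strict. Alternatives were normexp (offset 50), quantile, median, detected-probe and spike-in scaling, the authors' log2 values, detection filters, a floor, limma with trend and robust fitting, the methods' t-test, a replicate block, a 1.5-fold threshold and leaving out each mouse.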

Additional observations from a re-analysis of the deposited data

Results flagged for a closer look

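Among the named probes, 111 groups of 4 mice with the probe detected on each array were searched for a mouse far from the other three, and 8 were found. Chance flags about 1 in 20 groups. B6 replicate 1 was low at Bbs4 (2.25, the next mouse 2.34) and at the last Parp6 probe (4.69, next 4.85), and high at 6030419C18Rik (1.66, next 1.60). B6 replicate 3 was high at Arid3b (1.47, next 1.29) and at the Ensembl probe of Tle3 (-0.39, next -0.65). B6 replicate 2 was low at Rec114 (-4.90, next -4.32), B6 replicate 4 was high at Crabp1 (0.13, next -0.05), and BTBR/R replicate 2 was low at Elmod1 (4.29, next 4.43). At Rec114, Arid3b, Crabp1 and the Tle3 probe, the strain difference kept its side of the threshold under each left-out mouse.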

How the results depend on the processing

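Leaving out each mouse in turn gave 3 to 4 probes called higher and 7 to 10 lower, 28 to 34 higher and 22 to 28 lower by the adjusted p alone, and a Cd276 change of -1.88 to -1.66. With normexp background correction, which shrinks dim probes, limma called 0 probes higher (0 at an unadjusted p below 0.05, 4 by the methods' t-test on the main scale) and 3 lower, and Cd276 changed by -0.89, below 2-fold. A floor at the highest detection limit gave 2 higher and 4 lower, a fit of the probes detected on all 8 arrays could call only 1 lower, and a 1.5-fold threshold gave 9 and 17. Spike-in scaling gave 63 higher and 11 lower by the adjusted p alone. Of the 11 called probes besides Cd276, 11 kept the call with median scaling, the authors' log2 values and the methods' t-test, and 10 with quantile normalization, but 3 with normexp and 5 with the floor. Normexp ended the calls of Rec114, Stra6, Gramd2, Lctl, the lincRNA, the RefSeq Lrrc49 probe and the Parp6 probes AK021076 and AK007206, and the floor those of Cspg4, Rec114, Gramd2, Lctl and the same Parp6 probes. The Ensembl Lrrc49 probe and the Parp6 probe AK164722 alone kept it under each alternative that fitted them. Same-numbered mice did not deviate together (correlations of 0.00, -0.07, -0.04 and 0.16), so the numbers do not pair the mice. A replicate block gave 4 higher and 8 lower calls, 25 higher and 20 lower by the adjusted p alone and a Cd276 change of -1.78. Dim probes in BTBR/R are limited by that strain's higher detection limits.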
